A study of Homo sapiens with 6 samples.

Results

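The caspase family was followed through 7 genes, CASP1, CASP2, CASP4, CASP6, CASP8, CASP9 and CASP10, taken by gene name from the 58884 genes of a transcriptome measured after knockdown of CIRBP, the cold-inducible RNA-binding protein. RNA-seq had been carried out in an immortalized human ventricular cardiomyocyte line in 3 libraries of cells given a negative control siRNA (NC) and in 3 of cells given CIRBP siRNA (SiCIRBP). No other agent is named for either group. The labels of the libraries name the line T0519, whereas the paper describes the transcriptome as that of AC16, the other immortalized ventricular cardiomyocyte line it used. All libraries thus came from a single line, and neither the time between transfection and harvest nor whether the libraries of a group came from separate cultures was given in the sources used here. The paper set NC_1 and SiCIRBP_2 aside because they differed most by correlation and principal component analysis of the RNA-seq data. It compared NC_2 and NC_3 with SiCIRBP_1 and SiCIRBP_3. The values over these 4 libraries are therefore given first, with those over all 6 beside them for CIRBP, most members and part of the other genes. The choice of these 4 thus came from the expression data, which p-values over them do not take into account.

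Caspases are cysteine proteases that cleave their substrates after aspartate and are made as inactive precursors. Initiator caspases are activated by dimerization on adaptor platforms: CASP8 and CASP10 on the adaptor FADD under death receptors, CASP9 on the apoptosome that APAF1 forms with cytochrome c released from mitochondria, and CASP2 on the PIDDosome of PIDD1 and CRADD. The initiators then cleave executioner caspases, to which CASP6 belongs, whereas CASP1 and CASP4 are inflammatory caspases that cleave gasdermin D and, for CASP1, the precursors of interleukin-1 beta and interleukin-18. Because activation is by assembly and cleavage, an mRNA level gives the amount of message for the precursor and not the activity of the enzyme.

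On GRCh38, with GENCODE 29, the members lay at 5 places in the genome. CASP10 (chr2:201182881-201229406) and CASP8 (chr2:201233443-201287711) are neighbours on the plus strand with 4036 bases between them. CASP4 (chr11:104942866-104969436) and CASP1 (chr11:105025443-105035250) lie on the minus strand of chromosome 11, 56006 bases apart. CASP2 (chr7:143288215-143307696) is on the plus strand, and CASP6 (chr4:109688622-109703583) and CASP9 (chr1:15490832-15526534) are on minus strands. The genes are annotated with between 7 transcripts (CASP2) and 20 transcripts (CASP8), so that a count per gene pools several isoforms.

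The promoter windows of 3 members are shown. They were picked by their values, since these members differed in how far SiCIRBP_2 stood from the other libraries, as described further on. Of the 3, CASP8 differed most, CASP4 less and CASP2 least. RefSeq lists 3 windows for CASP8, 2 for CASP2 and 1 for CASP4, of which the most upstream is shown. Each runs from 250 bases before to 50 after the annotated start (RefSeq, GRCh38.p14), 5′ to 3′ on the strand of the gene. Capitals mark matches, on either strand, to an interferon-stimulated response element (a pair of GAAA words with any 2 bases between them), a gamma-activated sequence (TTCNNNGAA) or a GC box (GGGGCGGGG).
CASP8, chr2:201233213-201233512, plus strand: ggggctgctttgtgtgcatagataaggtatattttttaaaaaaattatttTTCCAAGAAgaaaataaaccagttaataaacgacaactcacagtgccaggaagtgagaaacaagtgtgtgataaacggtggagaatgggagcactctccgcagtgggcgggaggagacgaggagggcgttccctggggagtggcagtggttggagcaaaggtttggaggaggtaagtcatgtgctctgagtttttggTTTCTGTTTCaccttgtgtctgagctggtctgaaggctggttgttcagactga
CASP4, chr11:104968525-104968824, minus strand: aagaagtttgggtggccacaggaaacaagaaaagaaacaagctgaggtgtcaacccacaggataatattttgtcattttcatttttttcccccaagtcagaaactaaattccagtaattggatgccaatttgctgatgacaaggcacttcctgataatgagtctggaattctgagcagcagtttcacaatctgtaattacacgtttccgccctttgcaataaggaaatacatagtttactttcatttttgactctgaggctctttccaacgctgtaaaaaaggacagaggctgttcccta
CASP2, chr7:143288101-143288400, plus strand: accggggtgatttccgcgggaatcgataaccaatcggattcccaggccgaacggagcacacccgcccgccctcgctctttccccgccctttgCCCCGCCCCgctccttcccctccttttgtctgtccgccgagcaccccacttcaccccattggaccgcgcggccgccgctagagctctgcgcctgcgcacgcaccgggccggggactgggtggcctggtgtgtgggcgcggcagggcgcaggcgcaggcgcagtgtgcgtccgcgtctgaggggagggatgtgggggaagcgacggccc
The CASP8 window shown held 1 match to the response element, TTTCTGTTTC, which is the motif read on the other strand and begins at base 248 of the window. It also held 1 match to the gamma-activated sequence, TTCCAAGAA, beginning at base 51, and the matches did not overlap. The other windows of CASP8, chr2:201257785-201258084 and chr2:201260286-201260585, held 0 matches to any of the 3 motifs. Of 35116 RefSeq promoter windows of the same length, 3.57% held the response element, 7.66% the gamma-activated sequence and 15.7% the GC box. The CASP4 window, with 39.7% G and C, held none of the 3 motifs, and the CASP2 window shown, with 71.3% G and C, held 1 GC box, whereas its other window, chr7:143289338-143289637, with 43.0% G and C, held none. The windows not shown of other members, 1 of CASP6 and 2 of CASP9, held 0 response elements and 0 gamma-activated sequences. Each held at least 1 GC box. These are matches of letters and not measured binding sites, and a link between them and the values of the libraries was not tested.

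The libraries held between 25726259 and 29919566 estimated counts. CIRBP, the siRNA target, was checked in normalized counts (CPM, counts scaled to a common library size by TMM) and had 86.4, 85.8 and 91.0 CPM in NC_1, NC_2 and NC_3 against 54.8, 24.3 and 46.3 CPM in SiCIRBP_1, SiCIRBP_2 and SiCIRBP_3. Every SiCIRBP library was below every NC library. The log2 fold change was -0.81 ± 0.11 (SE) over the 4 libraries (edgeR quasi-likelihood test, Benjamini-Hochberg adjusted p = 0.00828) and -1.07 ± 0.26 over all 6 (adjusted p = 0.103). Of 13 cardiomyocyte markers, 10 had fewer than 10 counts in every library, among them RYR2, PLN, MYH6 and MYL2 at 0 in all 6, while ACTN2 and NKX2-5 were detected, and most markers that define contractile cardiomyocytes were thus absent or nearly so. Summed TPM of 7 fibroblast markers ranged from 937 to 1102 in NC and from 558 to 1651 in SiCIRBP, and that of 4 endothelial markers from 2.57 to 5.22 and of 5 immune markers from 9.33 to 13.2 over all libraries. SiCIRBP_2 stood apart by its interferon-stimulated genes: all 28 listed were above the NC median there, by a median log2 of 3.68, whereas 0 of 28 were above it in SiCIRBP_1 (median -1.09) and 27 of 28 in SiCIRBP_3 (median 0.97).

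**Figure D1:**
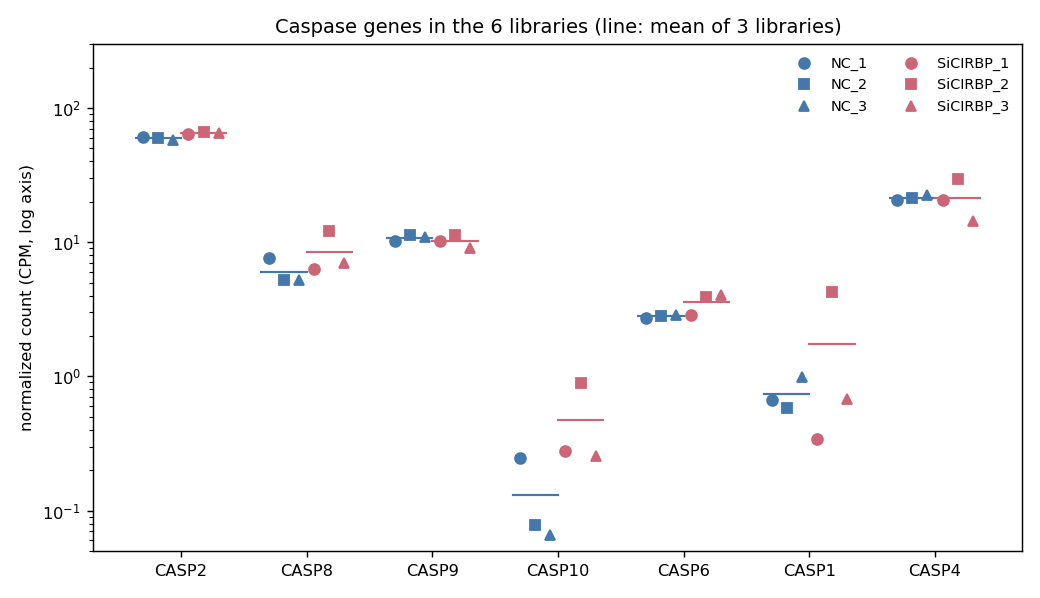
Normalized counts (CPM, log axis) of the 7 caspase genes in each library, NC in blue and SiCIRBP in red, with a line at the mean of 3 libraries. CASP2 is tight within each group, from 58.1 to 66.0 CPM over all libraries, whereas CASP1 and CASP10 have a single high point, SiCIRBP_2.

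The message of 2 members made up most of the family. On the TPM scale, which is scaled by transcript length and so allows genes to be set beside each other, CASP4 had a median level of 26.7 over the 6 libraries, CASP2 of 20.3, CASP9 of 9.47, CASP6 of 5.54, CASP8 of 4.25, CASP1 of 1.48 and CASP10 of 0.06. The ranges separated CASP2 from CASP9 and CASP1 from CASP10. Other neighbours in this order had overlapping ranges: CASP4 was above CASP2 in 5 of 6 libraries, CASP9 above CASP6 in 5, CASP6 above CASP8 in 3 and CASP8 above CASP1 in 6. The TPM of the 7 genes summed to 68.0 ± 3.28 in NC and 67.7 ± 8.85 in SiCIRBP (SD, n = 3 libraries each). CASP4 took 41.2% ± 1.28 of that sum in NC and 35.4% ± 6.08 in SiCIRBP, with the lowest share, 28.6%, in SiCIRBP_3. CASP2 took 29.8% ± 1.44 in NC and 30.8% ± 5.38 in SiCIRBP.

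The comparison of SiCIRBP with NC asked whether lowering CIRBP changed the expression of these genes. None of the 6 members that could be tested passed the threshold (adjusted p under 0.05 over 15421 genes) in either direction over the 4 libraries, and 0 of the 6 reached an unadjusted p under 0.05. By the same test 19.4% of all genes tested passed, 9.62% higher and 9.76% lower, and 36.6% had an unadjusted p under 0.05. Over all 6 libraries, 0 members and 0 of 15217 genes (0.0%) passed in edgeR, with 23.7% of genes at an unadjusted p under 0.05. DESeq2 over the same 6 called 10.0% of genes and 0 members. The median absolute log2 fold change was 0.30 for the 6 members and 0.30 for all genes tested. Such fitted sizes include estimation error, so they do not show that the members moved. The libraries hold RNA of whole cultures, in which fewer cells expressing a gene and less of its message per cell cannot be told apart.

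The intervals limit how large a change could have been missed. Over the 4 libraries, the 95% intervals of 5 of the 6 members lay inside a 2-fold change in either direction. The exception was CASP1, whose fold of 0.65 had an interval from 0.28 to 1.49. Over all 6 libraries, 4 of the 6 stayed inside a 2-fold change. The exceptions were CASP1, with an interval from 0.60 to 8.89, and CASP8, with one from 0.87 to 2.27. With 2 libraries per group these intervals rest largely on the spread estimated across genes.

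**Figure D2:**
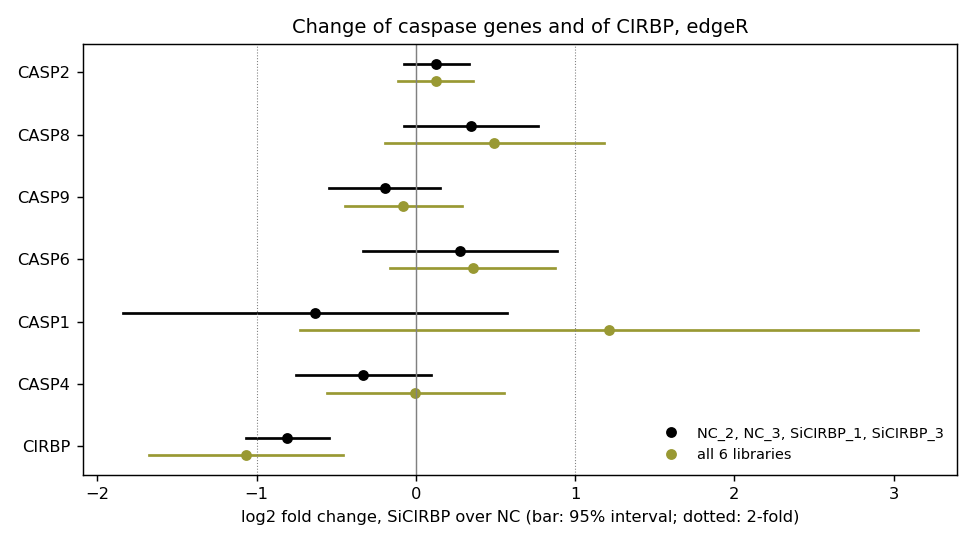
Log2 fold changes, SiCIRBP over NC, with 95% intervals from edgeR, for the 4 libraries used in the paper (black) and all 6 (olive). The interval of CIRBP lies below 0 in both, while every caspase interval crosses 0 and CASP1 changes sign, from -0.63 to 1.21.

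CASP8, the initiator that FADD recruits to death receptors, had 7.61, 5.24 and 5.18 CPM in NC_1, NC_2 and NC_3 and 6.27, 12.2 and 7.0 CPM in SiCIRBP_1, SiCIRBP_2 and SiCIRBP_3. SiCIRBP_2 was the highest library and NC_1 lay above 2 of the 3 SiCIRBP libraries, so that the groups overlapped over all 6 and not over the 4. Its log2 fold change was 0.35 ± 0.18 over the 4 libraries (adjusted p = 0.204) and 0.49 ± 0.30 over the 6 (adjusted p = 0.337). CASP8 had the smallest unadjusted p of the members, 0.0918 by edgeR over the 4 libraries. CASP10, its neighbour on chromosome 2 and the other initiator at these receptors, had only 7, 2 and 2 counts in the NC libraries and 8.11, 22.99 and 7.14 in the SiCIRBP libraries, and was left out of the fit by the filter on low counts. Every SiCIRBP library was above every NC library, with the smallest gap between 7 and 7.14 counts. Summed over the 4 libraries, 4 counts in NC stood against 15 in SiCIRBP, a normalized ratio of 3.68 with a 95% interval from 1.17 to 15.2 that covers counting error only. Over all libraries but SiCIRBP_2 the ratio was 2.02 (0.87 to 4.86). Without the filter, edgeR gave CASP10 a log2 fold change of 1.80 ± 1.17 over the 4 libraries (adjusted p = 0.373).

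CASP9, the initiator of the apoptosome, had 10.1, 11.2 and 10.9 CPM in the NC libraries and 10.2, 11.3 and 9.05 CPM in the SiCIRBP libraries. The groups overlapped over all 6, with SiCIRBP_2 the highest library and SiCIRBP_3 the lowest. On the log2 scale the change was -0.20 ± 0.15 (adjusted p = 0.367) over the 4 libraries and -0.08 ± 0.16 (adjusted p = 0.786) over the 6. CASP2, the initiator of the PIDDosome, had the most counts of the members, between 1537 and 1865, and had 60.7, 59.7 and 58.1 CPM in NC against 63.9, 66.0 and 64.9 CPM in SiCIRBP. The groups did not overlap, yet their means, 59.5 ± 1.31 and 65.0 ± 1.09 CPM (SD, n = 3), lay close together. The fold was 1.09 over the 4 libraries with a 95% interval from 0.95 to 1.26 (log2 fold change 0.13 ± 0.09, adjusted p = 0.314). An exact permutation test over 3 against 3 libraries gave p = 0.1, two-sided, the smallest value this design allows.

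CASP6, the executioner among the members, had 2.73, 2.84 and 2.85 CPM in NC and 2.88, 3.89 and 4.02 CPM in SiCIRBP, from between 73 and 113 counts per library. The groups did not overlap, but SiCIRBP_1 was at the edge of the NC range and the other SiCIRBP libraries well above it. The difference was a log2 of 0.28 ± 0.26 over the 4 libraries (adjusted p = 0.472) and 0.36 ± 0.22 over the 6 (adjusted p = 0.353), with an exact permutation p of 0.1 over 3 against 3 libraries. CASP6 overlaps MCUB by 105 bases and an antisense gene, AC004067.1, by 700 bases on the opposite strand, and whether the counting used strand is not given in the sources used here, so reads from these genes may not be separable.

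CASP4, an inflammatory caspase that binds lipopolysaccharide, had 20.5, 21.4 and 22.6 CPM in NC and 20.5, 29.4 and 14.5 CPM in SiCIRBP. SiCIRBP_1 lay at the lower edge of a narrow NC group, SiCIRBP_2 was the highest library of all and SiCIRBP_3 the lowest. The log2 fold change was -0.33 ± 0.18 over the 4 libraries (adjusted p = 0.227) and 0.00 in size with an SE of 0.24 over the 6 (adjusted p = 0.995). When SiCIRBP_1 was left out, SiCIRBP_3 alone against NC_2 and NC_3 gave -0.61 ± 0.12 and an adjusted p of 1.59e-06, a call that rests on SiCIRBP_3 and on the assumption that it varies like the NC libraries. CASP1, which inflammasomes activate, had 0.67, 0.58 and 0.98 CPM in NC and 0.34, 4.25 and 0.68 CPM in SiCIRBP, from 10 to 109.22 counts. A single library, SiCIRBP_2, was above the NC range and SiCIRBP_1 was below it. The fitted log2 fold change was -0.63 ± 0.51 over the 4 libraries (adjusted p = 0.407) and 1.21 ± 0.84 over the 6 (adjusted p = 0.394). Of the 31-base words in the transcripts of CASP1, 7.66% also occur in those of CARD16, a relative on the same chromosome that consists largely of a CARD domain, so that estimated counts can be divided between them. CARD16 had 4.03 ± 0.33 CPM in NC and 6.98 ± 2.15 CPM in SiCIRBP (SD, n = 3), with a log2 fold change of 0.52 ± 0.23 over the 4 libraries (adjusted p = 0.153) and 0.79 ± 0.26 over the 6 (adjusted p = 0.139 in edgeR and 0.049 in DESeq2).

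Over the 4 libraries, the groups of 5 of the 6 tested members did not overlap in CPM, beside 65.5% of all genes tested, CASP1 being the exception. Over all 6 libraries, 2 of the 6, CASP2 and CASP6, did not overlap, beside 32.9% of all genes tested.

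SiCIRBP_2 was the highest library for 6 of the 7 members and the second highest for CASP6. Its CPM over the median of the other 5 libraries was 6.38-fold for CASP1, 3.65-fold for CASP10, 1.95-fold for CASP8, 1.43-fold for CASP4, 1.36-fold for CASP6, 1.10-fold for CASP9 and 1.09-fold for CASP2. CASP1 was lowest in SiCIRBP_1, where the interferon-stimulated genes were lowest too, and lay within the NC range in SiCIRBP_3, where 27 of the 28 were above the NC median. Their summed TPM was 993, 970 and 985 in NC and 451, 9153 and 1848 in SiCIRBP_1, SiCIRBP_2 and SiCIRBP_3, and 0 of 28 were higher and 1 of 28, STAT2, lower over the 4 libraries (log2 fold change -0.39 ± 0.10, adjusted p = 0.0409). The part of this in the caspase values was not tested. The genes whose log2 profile over the 6 libraries was nearest to that of each member with a log2 span of at least 1 were sought among 10687 genes with a mean of at least 5 CPM. For CASP1 these were TRANK1 and DDX58, with root mean square log2 differences of 0.21 and 0.23. DDX58, a sensor of viral RNA and one of the 28 interferon-stimulated genes, had 19.6, 21.8 and 23.3 CPM in NC and 10.3, 114.6 and 24.5 CPM in SiCIRBP. For CASP8 they were VEGFC (0.05) and GTF2B (0.06), for CASP4 STX6 (0.07) and SMIM29 (0.07), and for CASP10, with 2 to 22.99 counts per library, APOL2 and AP1M2 (0.52 each).

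The TPM values did not always order the libraries as the counts did. TPM is the count divided by a transcript length that the counting tool assigns to the gene in each library, so count over TPM, centred on the median gene of the library, gives an implied length that moves with the isoforms to which reads were assigned. For CASP2 and CASP4 the widest spans over the 6 libraries were 1.05-fold and 1.04-fold, less than in 75.3% and 78.5% of 11183 genes. For CASP6 the implied length relative to the NC mean was 1.29, 0.88 and 0.88 in NC and 1.47, 1.00 and 0.83 in SiCIRBP, high in NC_1 and SiCIRBP_1 and a span exceeded by 3.08% of genes. For CASP8 it was 0.99, 1.03 and 0.98 in NC and 0.93, 0.96 and 0.58 in SiCIRBP, a span exceeded by 3.20% of genes and set by SiCIRBP_3. CASP8 accordingly had its highest TPM, 6.87, in SiCIRBP_3, whereas its highest CPM was in SiCIRBP_2. For CASP9 it was 0.75 in SiCIRBP_1 and between 0.88 and 1.08 in the other libraries. None of the 5 members with enough counts passed limma's test of the implied length over the 4 libraries, nor did any of the 11183 genes (0.0%; 13.2% at an unadjusted p under 0.05). CASP1 and CASP10 were left out for low counts.

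**Figure D3:**
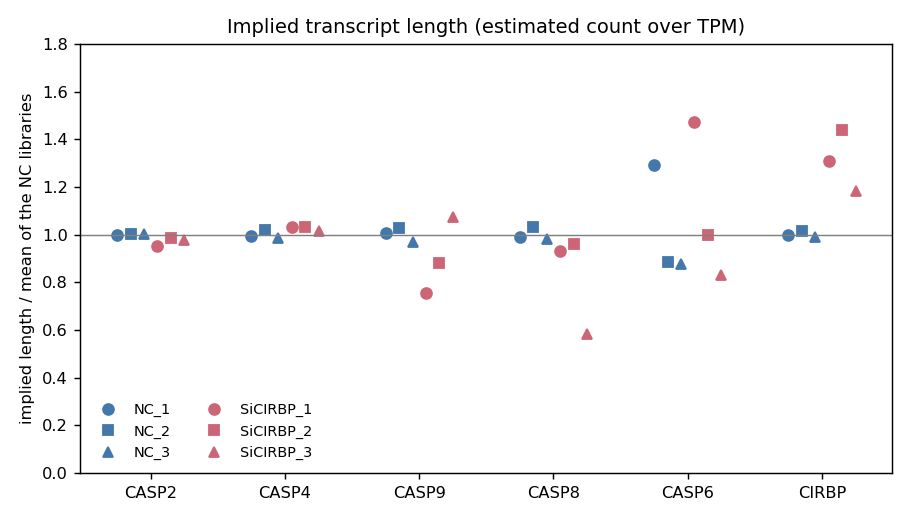
Implied transcript length (estimated count over TPM, relative to the mean of the NC libraries) in each library for 5 caspase genes and CIRBP. CASP2 and CASP4 stay near 1, SiCIRBP_3 stands alone at 0.58 for CASP8, and CASP6 is high in NC_1 and SiCIRBP_1, at 1.29 and 1.47.

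The partners of the caspases were taken from 6 lists of 55 genes, of which 46 could be tested and 8 were higher and 5 lower over the 4 libraries, 28.3% beside 19.4% of all genes. None of these 13 calls changed sign when SiCIRBP_1 or SiCIRBP_3 was left out. Such fits hold a lone SiCIRBP library, assumed to vary like the NC libraries. When NC_2 was left out LMNA alone remained, and when NC_3 was left out 0 remained, with no change of sign in either case. Over all 6 libraries none passed in edgeR. DESeq2 over the same 6 called 4 of 46, beside 10.0% of all genes tested, and gave IL1B no adjusted p. Over 5 libraries, with SiCIRBP_2 alone left out, 8 of 46 passed in edgeR, beside 7.2% of all 15530 genes tested.

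Some markers of cell types also passed in the same comparison. Of the cell type markers 13 could be tested, and 5 passed over the 4 libraries, where 19.4% of all genes tested passed. The transcription factor NKX2-5, a cardiomyocyte marker, had a log2 fold change of -1.24 ± 0.22 (edgeR adjusted p = 0.0160). Of the 3 cardiomyocyte markers tested, ACTN2 and TNNI3 did not pass. ACTN2 was lower, at -0.42 ± 0.15 (edgeR adjusted p = 0.0981), and TNNI3 was higher, at 2.44 ± 0.79 (edgeR adjusted p = 0.0719). TNNI3 had 7 and 1 counts in NC_2 and NC_3 and 16 and 30 in SiCIRBP_1 and SiCIRBP_3. Among fibroblast markers, the collagen COL1A1 rose by 0.87 ± 0.21 (edgeR adjusted p = 0.0332) and the receptor PDGFRA had a log2 fold change of -0.38 ± 0.09 (edgeR adjusted p = 0.0297). CD68, of the immune list, rose by 0.65 ± 0.17 (edgeR adjusted p = 0.0437). VWF, of the endothelial list, had 1 and 4 counts in NC_2 and NC_3 and 16 and 15 in SiCIRBP_1 and SiCIRBP_3, a ratio of 6.09 with a 95% counting interval from 2.35 to 20.1 (edgeR adjusted p = 0.0369). None of the 5 calls held over all 6 libraries in edgeR, or when NC_2 or NC_3 was left out. In SiCIRBP_2, NKX2-5 had 9.49 CPM, above every NC library, and COL1A1 had 1629 CPM, below every NC library. PDGFRA, CD68 and VWF kept their direction there. The part of these markers in the values of the caspases and of their partners was not tested.

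In the death receptor arm 1 of 9 tested genes rose and 1 fell. FADD, the adaptor of CASP8 and CASP10, rose by a log2 of 0.85 ± 0.15 (adjusted p = 0.0145), and CFLAR, the catalytically inactive homologue of CASP8 that competes with it at the receptor, had a log2 fold change of -0.59 ± 0.10 (adjusted p = 0.0135). CFLAR was 74.6 CPM in SiCIRBP_2, above all NC libraries, and its log2 fold change over 6 libraries was -0.27 ± 0.22 (adjusted p = 0.454). In the mitochondrial and apoptosome arm 2 of 8 rose and 1 fell. CYCS, cytochrome c, rose by 0.71 ± 0.09 (adjusted p = 0.00688) and ENDOG, a mitochondrial nuclease, by 0.42 ± 0.11 (adjusted p = 0.0397), on the log2 scale. HSPA1B, a chaperone, had a log2 fold change of -0.38 ± 0.08 (adjusted p = 0.0244), which is uncertain because HSPA1A is a nearly identical copy. Neither of the 2 PIDDosome genes passed, and the smaller p was that of PIDD1 (log2 fold change -0.33, adjusted p = 0.103).

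In the inflammasome and pyroptosis arm 1 of 10 tested genes rose and 2 fell. DPP9, an inhibitor of NLRP1 and CARD8, rose by a log2 of 0.38 ± 0.08 (adjusted p = 0.0232), and GSDME, a pore-forming gasdermin, had a log2 fold change of -0.74 ± 0.20 (adjusted p = 0.0453). IL1B, whose product CASP1 cleaves, had 15 and 30 counts in NC_2 and NC_3 and 3 and 1 in SiCIRBP_1 and SiCIRBP_3. The normalized ratio was 0.087, with a 95% interval from 0.023 to 0.24 that covers counting error only (edgeR adjusted p = 0.0197). Over all 6 libraries, with 11 counts in NC_1 and 7 in SiCIRBP_2, the ratio was 0.20 (0.095 to 0.39). Among the inhibitors of apoptosis, 1 of 5 tested rose, BIRC5 (survivin), by 0.71 ± 0.09 (adjusted p = 0.00726), and 1 fell, XIAP, which binds and inhibits CASP9, with a log2 fold change of -0.79 ± 0.16 (adjusted p = 0.0232). Of 12 caspase substrates 3 rose and none fell. These were the nuclear lamins LMNA (0.89 ± 0.09, adjusted p = 0.00476) and LMNB1 (0.53 ± 0.10, adjusted p = 0.0183) and the actin-severing protein GSN (0.79 ± 0.18, adjusted p = 0.0294), all on the log2 scale. Over all 6 libraries the edgeR adjusted p-values of the genes named in these lists were 0.0869 or higher. With NC_1 and SiCIRBP_2 included, the groups of CFLAR, ENDOG, HSPA1B, GSDME and LMNB1 overlapped in CPM. Those of the other called partners did not, beside 32.9% of all genes tested that did not overlap. The 6-library log2 fold changes were 0.23 ± 0.16 for ENDOG, -0.23 ± 0.13 for HSPA1B, -0.50 ± 0.27 for GSDME and 0.55 ± 0.23 for LMNB1. Of the 13 called partners, 1, IL1B, changed by 2-fold or more.

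**Figure D4:**
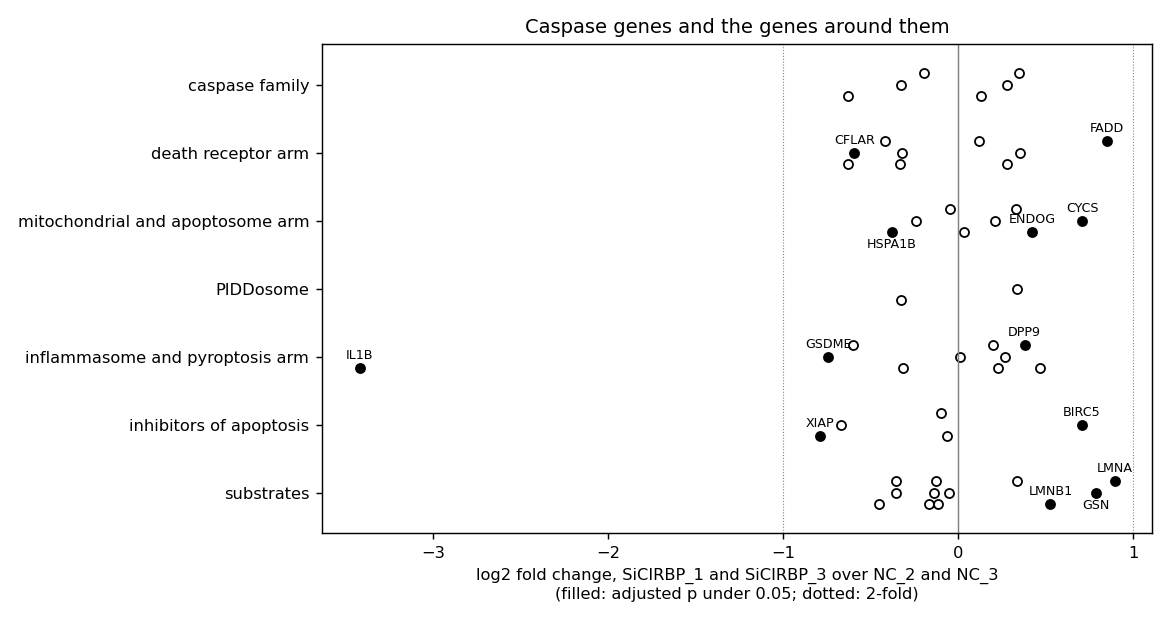
Log2 fold changes over the 4 libraries (SiCIRBP_1 and SiCIRBP_3 over NC_2 and NC_3) of every tested gene of the caspase family and of 6 lists of partner genes, filled where the adjusted p is under 0.05. All 6 caspase family points are open, while 13 partner genes are filled, 8 to the right of 0 and 5 to the left.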

How the data were processed

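Total RNA of 6 libraries was sequenced, with groups and replicate numbers as the labels give them. The authors deposited, for 58884 genes, an estimated count per library (reads assigned to a gene, not normalized) and a TPM value, scaled by library and by an assigned transcript length. Of the count values 62.86% were 0, and 65.86% of those above 0 were whole within 1e-06. The submitters' processing notes name fastp, HISAT, RSEM and hg38. Tool versions, the annotation release and the strand setting are not given in the sources used here. The deposited tables also hold the authors' group means, fold changes and p-values, which were not used.

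Estimated counts were rounded and tested with the edgeR 4.0.16 quasi-likelihood test in R 4.3.3 (TMM, filterByExpr, Benjamini-Hochberg over all genes tested, threshold 0.05). Errors are standard errors unless named SD. Implied lengths (at least 50 counts and a TPM of at least 1 in every library) were tested with limma 3.58.1, and counting ratios used the exact conditional binomial interval at 95% confidence. Motifs were searched in RefSeq promoters, which held entries for CASP2, CASP4, CASP6, CASP8 and CASP9, and CASP1 and CASP10 had no entry.

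The members and lists were chosen with earlier results of these data known. Genes named are the members, CIRBP, up to 4 genes of each list with the smallest p among those past the threshold (otherwise the gene with the smallest p), the 2 nearest profiles of each member with a log2 span of at least 1, and CARD16. The cardiomyocyte markers ACTN2, RYR2, PLN, MYH6 and MYL2 lie outside this rule and were chosen after their values were seen, to show which markers were detected. Since nothing states that libraries of a group were separate cultures, p-values measure the spread between these libraries, which may be technical. No evidence was seen that replicate numbers pair the libraries: deviations of same-numbered libraries from their group means correlated at -0.12, 0.01 and -0.03. With 3 libraries per group, these values cannot exclude pairing. The comparison was repeated over all 6 libraries, with a replicate block, without each library in turn, with DESeq2 1.42.0, with RLE size factors, with other filters on low counts, and with limma on log2(TPM + 1) and log2(TPM + 0.1). Some genes of the lists are not reported here.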

Additional observations from a re-analysis of the deposited data

How the results depend on the processing

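Over the 20 alternatives to the reported fit, which takes the 4 libraries used in the paper, no caspase gene was called higher in any and 1, CASP4, was called lower in a single one, without SiCIRBP replicate 1 (range over libraries left out 0 to 1). Several of these alternatives called 0 of all genes, so the lack of caspase calls in them carries little information. These were the fit over all 6 libraries and those over the 6 without NC_2, NC_3, SiCIRBP_1 or SiCIRBP_3. No caspase gene passed for implied length in any of 7 alternatives, and the reported test of implied length passed 0 of all 11183 genes. CASP2 and CASP8 kept their direction in all 20. The cause was not tested for any change below. The log2 fold change of CASP1 was -0.63 as reported, 1.21 over all 6 libraries, 1.24 with DESeq2 over all 6, 1.197 over all 6 without the filter, and between -1.20 and 1.71 with a library left out, the value without SiCIRBP_2 being -0.55. CASP4 gave 0.0054 with DESeq2 over all 6 libraries and between -0.61 and 0.22 with a library left out. CASP6 gave -0.13 and -0.17 with limma on log2(TPM + 1) and log2(TPM + 0.1), CASP9 between -0.29 and 0.0095 with a library left out, and the implied lengths of CASP6 and CASP9 between -0.087 and 0.74 and between -0.40 and 0.11.

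CIRBP remained lower in every alternative and lost its call in 9: over all 6 libraries (-1.07), with the replicate block and in part of the fits with a library left out (-1.31 to -0.70). The replicate block over all 6 libraries, whose numbers are shared without evidence of pairing, gave -1.14 (adjusted p = 0.131) for CIRBP and 0.52 for CASP1, and called 1 gene higher and 0 lower of all genes, and no caspase.

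Of all genes, 1484 were higher and 1505 lower as reported. The counts were 0 and 0 over all 6 libraries, 747 and 775 with DESeq2 over all 6, 421 and 460 over all 6 without the filter, 433 and 775 with limma on log2(TPM + 1), 440 and 793 on log2(TPM + 0.1), and 2123 and 2492 over the 4 without the filter. With a library left out they lay between 0 and 3379 higher and between 0 and 3669 lower; of the 4 libraries, without NC_2 they were 69 and 99, without NC_3 25 and 39, without SiCIRBP_1 3379 and 3669 and without SiCIRBP_3 3047 and 3371, each time with a lone library assumed to vary like the other group. Without SiCIRBP_2, the other 5 libraries gave 554 and 564. Depth limits CASP10, CASP1 and CASP6 most, with at most 23, 109 and 113 counts in any library.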
